A study of Mus musculus with 12 samples.

Results

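The genes of the proteasome were followed across 12 arrays of MIN6 cells, a mouse insulinoma line that keeps many traits of pancreatic beta cells. Members were all genes whose symbol starts with Psm, one letter from a to g and a number, without pseudogenes, read from probe sets annotated with a single gene symbol. The rule gave 50 of the 19938 genes on the array, held by 56 of its 35556 probe sets, and the brightest probe set stood for a gene that had several. Of these 50, 48 encode parts, activators, inhibitors or assembly factors of the proteasome. The other 2, Psmc3ip and Psme3ip1, are named after a subunit they bind and are given apart.

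The 4 groups came from the array titles. In Defined Conditions (DC), a serum-free medium at 5% oxygen, 4 arrays are labelled Hes3 siRNA (replicates 1, 2, 5 and 7) and 4 scrambled siRNA. In Classic Conditions (CC), a medium with serum at 20% oxygen, 2 arrays are labelled Hes3 siRNA and 2 scrambled siRNA. All cells were first kept in medium with serum, plated at 50000 cells per well, transfected with siRNA (2 uM for the Hes3 siRNA) and assayed 12 to 24 hours later. The study asked how lowering Hes3, a transcriptional regulator of the Hes/Hey family, changes gene expression in each culture condition. The labels say that the samples of a group came from a single experiment, so p-values here measure the spread between these samples, which may be technical, and the number of arrays limits their precision.

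The proteasome is the barrel-shaped protease that degrades ubiquitin-tagged proteins in the cytosol and nucleus. Its core particle is a stack of rings of alpha subunits (Psma genes), which form the gate, and of beta subunits (Psmb genes), some of which are the active proteases. The regulatory cap has a base ring of ATPases (Psmc genes), which unfold the substrate, and non-ATPase subunits (Psmd genes), which bind ubiquitin chains and cut them off. Interferons induce 3 catalytic subunits, Psmb8, Psmb9 and Psmb10, that replace the constitutive ones in newly built cores and so form the immunoproteasome, best known for making peptides for MHC class I. Dedicated chaperones, among them the Psmg proteins, Psmd5, Psmd9 and Psmd10, help assembly but are absent from the finished particle. Beta cells make and discard large amounts of secretory protein and depend on this route to clear misfolded proinsulin from the endoplasmic reticulum.

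The target of the siRNA, Hes3, showed no decrease under its own siRNA label. Its log2 signal was 7.37, 7.36, 7.38 and 7.25 in the DC arrays labelled Hes3 siRNA, against 7.10, 7.24, 7.19 and 7.22 in the DC scrambled arrays. All 4 values lay above the 4 scrambled values, and the difference was 0.15 ± 0.08 (log2, SE) with a limma adjusted p of 0.114. With all genes split by mean signal into 4 equal classes, Hes3 lies in the second from the dimmest. In that class 46% of genes were higher without overlap in DC, with a median difference of 0.21. In CC Hes3 had 7.22 and 7.23 in the arrays labelled Hes3 siRNA, against 7.23 and 6.82 in the scrambled arrays, which overlap. The siRNA labels were thus not borne out by this probe set, and which part of the transcript it covers was not analysed here.

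The 12 arrays had medians from 7.78 to 7.96 on the log2 scale. Arrays 1 and 5 of the DC group labelled Hes3 siRNA had the smallest spread over all genes, with an SD of 1.76 and 1.78 log2 units, against 1.80 to 1.90 in the other 10 arrays. Of 12 beta cell markers 11 were measured, and all but Slc2a2 were among the brighter genes (the brightest of 4 signal classes), with Ins2 at no less than 12.82 and Iapp at no less than 13.52 in any array. In the DC arrays labelled Hes3 siRNA against the DC scrambled arrays, bright genes were mostly lower and dim genes mostly higher across the whole array. With genes split by mean signal into 4 classes of equal size, 40.9% of the brightest class were called lower and 2.39% higher, and in the dimmest class 1.2% were called lower and 36.9% higher. Since 31 of the 50 members are in the brightest class, the main counts are set beside that class as well as beside all genes.

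In DC, the arrays labelled Hes3 siRNA had lower signals for 20 members and higher signals for 3 at an adjusted p under 0.05 (limma, Benjamini-Hochberg over all genes). Over all genes 47.2% were called, 18.3% lower and 28.9% higher, so the members had a larger share of lower calls (40%) and a smaller share of higher calls (6%). The median difference of the 50 members was -0.16 on the log2 scale, against 0.06 for all genes and -0.15 for the brightest class. Among the 31 members of that class 17 were called lower (54.8%), with a median of -0.24. The 4 arrays of each group did not overlap for 15 members that were lower and for 2 that were higher, against 17% and 23.9% of all genes (40.9% in either direction). In the brightest class 12 of 31 members were lower without overlap (38.7%), nearly the same share as the 38.9% of all its genes. In bulk RNA, fewer cells with a transcript and less of it per cell cannot be told apart.

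**Figure D1:**
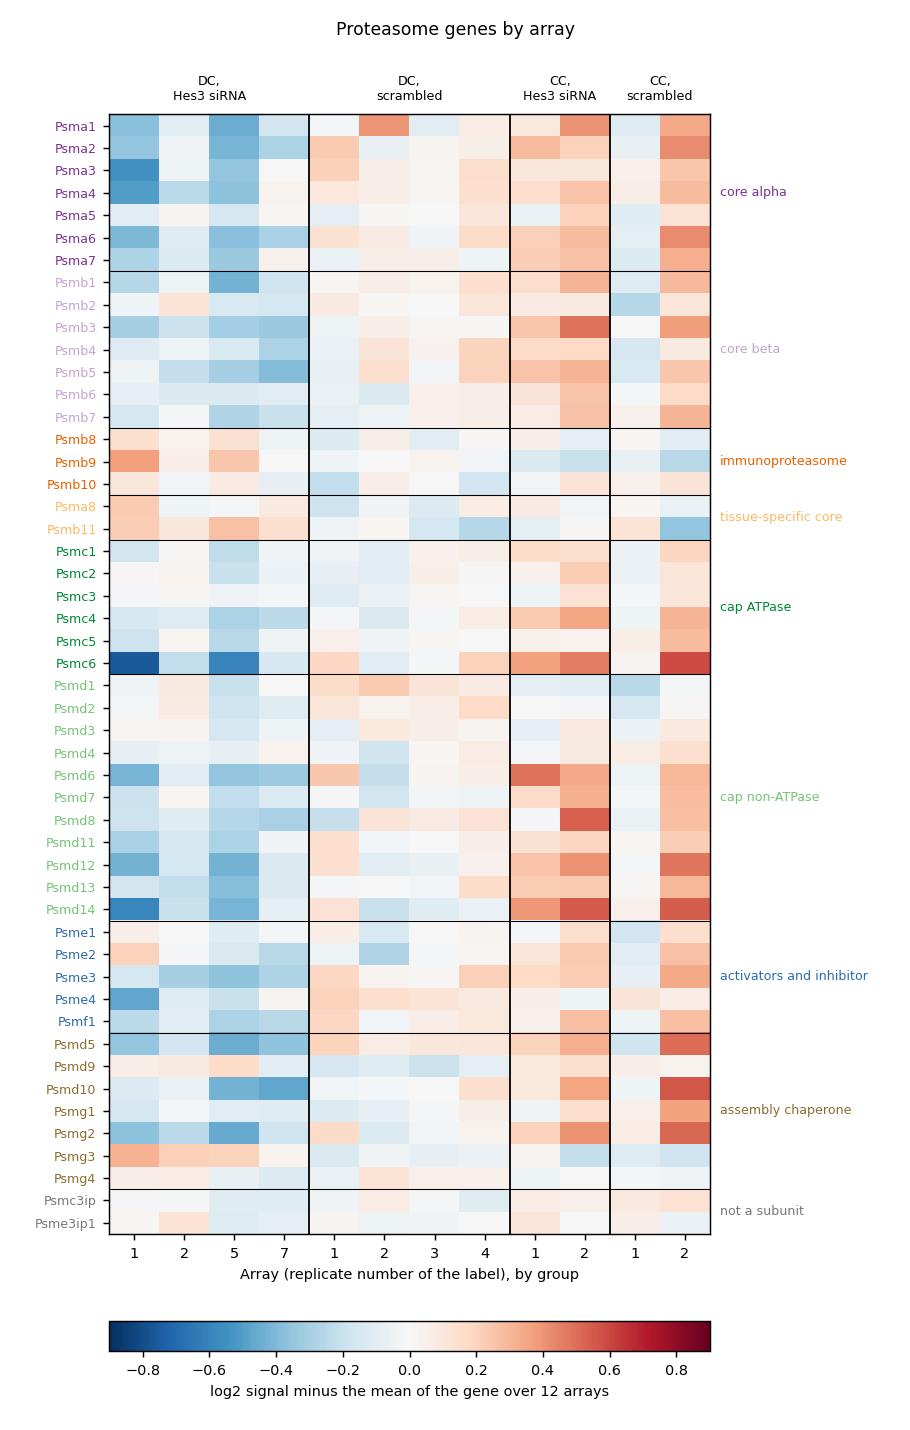
Heat map of the 50 members (down, grouped by role) in the 12 arrays (across, grouped by label), with colour for the log2 signal minus the gene's mean over 12 arrays. Core and cap genes are mostly blue (low) in the DC arrays labelled Hes3 siRNA, most of all in array 5, which was the lowest of these 4 arrays for 17 of the 31 core and cap genes.

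Most core particle genes were lower. All 14 constitutive alpha and beta genes had a negative difference in DC, and 9 passed the test: Psma1, Psma2, Psma3, Psma4 and Psma6 of the 7 alpha genes, and Psmb1, Psmb3, Psmb4 and Psmb5 of the 7 beta genes. Their differences ran from -0.22 for Psmb4 to -0.38 for Psma6, and the median over the 14 was -0.29. The 9 are 64.3% of the 14, of which 11 lie in the brightest class (40.9% called lower). Of all genes in that class 83.3% had a difference below 0. The 4 arrays of each group did not overlap for 5 of the 14 core genes (35.7%), against 38.9% of that class lower without overlap. The other 5 were Psma5 (-0.06, adjusted p = 0.521), Psma7 (-0.18, adjusted p = 0.122), Psmb2 (-0.10, adjusted p = 0.282), Psmb6 (-0.09, adjusted p = 0.265) and Psmb7 (-0.15, adjusted p = 0.102).

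Psma6 encodes a subunit of the alpha ring. Its log2 signal was 9.63, 9.93, 9.65 and 9.74 in the DC arrays labelled Hes3 siRNA, against 10.17, 10.11, 10.00 and 10.20 in the DC scrambled arrays. The groups did not overlap. Psma6 fell by 23.3% (-0.38 ± 0.10, SE, adjusted p = 0.00803).

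Psmb5 carries the chymotrypsin-like activity of the core. It had 11.59, 11.42, 11.34 and 11.24 in the DC arrays labelled Hes3 siRNA, against 11.57, 11.78, 11.61 and 11.84 in the DC scrambled arrays. Array 1 of the first group lay just above the lowest scrambled array, and the other 3 lay below all scrambled arrays. Psmb5 fell by 19.0% (-0.30 ± 0.09, adjusted p = 0.0172). Psmb6, the caspase-like subunit, had 9.68, 9.62, 9.63 and 9.65 in the arrays labelled Hes3 siRNA, against 9.70, 9.63, 9.80 and 9.81 in the scrambled arrays. Psmb7, the trypsin-like subunit, had 9.81, 9.95, 9.70 and 9.77 in the DC arrays labelled Hes3 siRNA, against 9.88, 9.92, 10.01 and 10.02 in the DC scrambled arrays. Both overlapped between the groups and neither passed the test, with 95% intervals of -0.22 to 0.05 for Psmb6 and -0.31 to 0.01 for Psmb7.

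The cap had 6 of its 17 genes called lower and none higher, with a median of -0.17. Of its differences 16 were below 0 (94.1%, against 83.3% of the brightest class). Of the 17, 14 lie in the brightest class, and the 35.3% called lower are below that class's 40.9%, with a median close to its -0.15. Among the 6 ATPases of the base only Psmc6 passed. It had the largest decrease of all 50 members: 8.60, 9.14, 8.77 and 9.22 in the DC arrays labelled Hes3 siRNA, against 9.55, 9.26, 9.35 and 9.57 in the DC scrambled arrays. The groups did not overlap, although arrays 2 and 7 lay close to the lowest scrambled array. Psmc6 fell by 29.3% (-0.50 ± 0.14, adjusted p = 0.0103). The other ATPases had differences from -0.17 for Psmc4 (adjusted p = 0.0714) to 0.03 for Psmc3 (adjusted p = 0.729). Subunits of one ring therefore differed in their calls, and the differences between ring members were not tested. The call also depended on the probe set for Psmc1. Its dimmer probe set had -0.31 (adjusted p = 0.0356, limma over all single-symbol probe sets).

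Among the 11 non-ATPase genes, 5 were called lower: the scaffold subunit Psmd1 (-0.18) and the lid subunits Psmd6 (-0.33), Psmd11 (-0.24), Psmd12 (-0.29) and Psmd13 (-0.26). Their adjusted p-values ran from 0.016 to 0.0483. Psmd14, the deubiquitinase that removes the chain from the substrate, had -0.26 with an adjusted p of 0.0741, and the ubiquitin receptor Psmd4 had -0.01 with an adjusted p of 0.921. The other 4 were Psmd2 (-0.16, adjusted p = 0.0619), Psmd3 (-0.06), Psmd7 (-0.07) and Psmd8 (-0.24, adjusted p = 0.0857).

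Of the 7 assembly chaperones 2 were called lower and 2 higher (28.6% each). In the third signal class from the dimmest, which holds 6 of them, 24.7% of genes were called lower and 19.6% higher. Psmd5, a chaperone of the ATPase ring, had 8.78, 8.96, 8.68 and 8.77 in the DC arrays labelled Hes3 siRNA, against 9.33, 9.20, 9.23 and 9.24 in the DC scrambled arrays. Every value of the first group lay below every value of the second, and Psmd5 fell by 26.9% (-0.45 ± 0.11, adjusted p = 0.00677). Psmg2, which pairs with Psmg1 to guide the alpha ring, fell by 0.32 on the log2 scale (adjusted p = 0.0158). Its partner Psmg1 had -0.05 (adjusted p = 0.544).

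Psmg3, which pairs with Psmg4 in alpha ring assembly, had 8.09, 7.99, 7.99 and 7.81 in the DC arrays labelled Hes3 siRNA, against 7.65, 7.75, 7.71 and 7.73 in the DC scrambled arrays. The groups did not overlap, and Psmg3 rose by 19.8% (0.26 ± 0.07, adjusted p = 0.0103). Psmg4 had -0.06 (adjusted p = 0.441). Psmd9, another chaperone of the ATPase ring, had 8.27, 8.29, 8.38 and 8.11 in the DC arrays labelled Hes3 siRNA, against 8.06, 8.10, 8.02 and 8.13 in the DC scrambled arrays. Array 7 of the first group lay within the scrambled range, and Psmd9 rose by 13.8% (0.19 ± 0.06, adjusted p = 0.0251). Psmd10 had -0.30 with an adjusted p of 0.051.

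Psmg3 lies in the second signal class counted from the dimmest, where 56.9% of genes were called higher. The third increase was Psmb11, in the same signal class. It encodes the catalytic subunit of the thymoproteasome, a form known from thymic cortical epithelium. Its log2 signal was 8.14, 8.01, 8.18 and 8.06 in the DC arrays labelled Hes3 siRNA, against 7.88, 7.93, 7.76 and 7.65 in the DC scrambled arrays. The groups did not overlap, and Psmb11 rose by 22.4% (0.29 ± 0.09, adjusted p = 0.0188). Psma8, the alpha subunit known from testis, had 0.14 (adjusted p = 0.128).

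Activators and the inhibitor, all in the brightest class, had 3 of 5 genes called lower (60%, against 40.9% of that class). Psme3 forms a ring activator of the nucleus. It had 10.04, 9.90, 9.84 and 9.92 in the DC arrays labelled Hes3 siRNA, against 10.38, 10.22, 10.21 and 10.41 in the DC scrambled arrays. The highest of the first group lay below the lowest of the second, and Psme3 fell by 23.3% (-0.38 ± 0.08, adjusted p = 0.00496). Psme4, a single-chain activator, fell by 0.33 and Psmf1, which inhibits the isolated core, fell by 0.29 on the log2 scale, with adjusted p-values of 0.00794 and 0.01.

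Psme1 and Psme2 form the interferon-induced ring activator that often goes with the immunoproteasome. Psme1 had 9.56, 9.50, 9.39 and 9.48 in the DC arrays labelled Hes3 siRNA, against 9.56, 9.36, 9.49 and 9.52 in the DC scrambled arrays. Psme2 had 9.50, 9.28, 9.17 and 9.04 in the DC arrays labelled Hes3 siRNA, against 9.25, 9.02, 9.28 and 9.31 in the DC scrambled arrays. Both overlapped, with 95% intervals of -0.16 to 0.16 for Psme1 and -0.18 to 0.25 for Psme2.

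**Figure D2:**
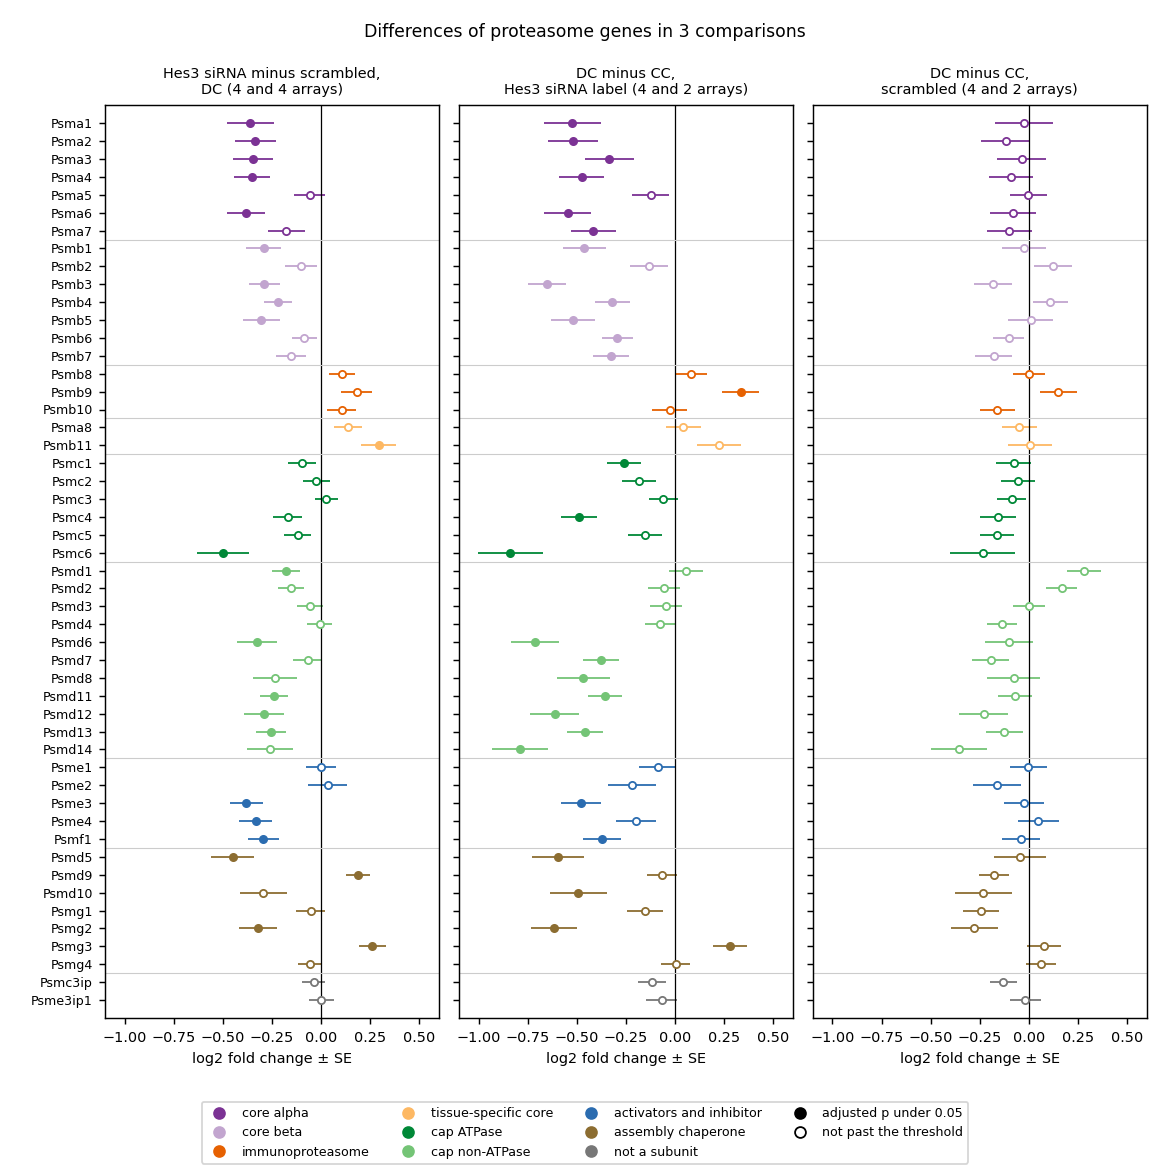
Log2 fold change with its SE for each member in 3 comparisons, coloured by role, with filled points for an adjusted p under 0.05. In the left panel 20 members lie left of 0 with filled points and 3 lie right of it (Psmb11, Psmg3 and Psmd9), in the middle panel 27 and 2, and in the right panel no point is filled.

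None of the 3 immunoproteasome genes was called in DC. Psmb8 had 7.00, 6.88, 6.99 and 6.81 in the DC arrays labelled Hes3 siRNA, against 6.73, 6.90, 6.76 and 6.86 in the DC scrambled arrays. Psmb9 had 8.99, 8.68, 8.87 and 8.61 in the DC arrays labelled Hes3 siRNA, against 8.58, 8.61, 8.64 and 8.59 in the DC scrambled arrays. Psmb10 had 8.11, 7.98, 8.08 and 7.94 in the DC arrays labelled Hes3 siRNA, against 7.78, 8.07, 8.01 and 7.83 in the DC scrambled arrays. All 3 overlapped between the groups, with arrays 1 and 5 the highest for each. Their differences were 0.11, 0.18 and 0.10, and none passed the test (adjusted p = 0.187, 0.064 and 0.234). Psmb8 lies in the dimmest signal class.

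Each immunoproteasome subunit replaces one constitutive subunit: Psmb8 takes the place of Psmb5, Psmb9 that of Psmb6 and Psmb10 that of Psmb7. The change of each pair was read within an array as the log2 signal of the first minus that of the second. The level of this value depends on the probes and was not interpreted. In DC it was higher by 0.41 for Psmb8 and Psmb5 in the arrays labelled Hes3 siRNA, with 4 of 4 arrays above all scrambled arrays (two-sided exact permutation p = 0.0286, the smallest that this design can give). It was higher by 0.27 for Psmb9 and Psmb6 and by 0.26 for Psmb10 and Psmb7, where the groups overlapped (exact permutation p = 0.0571 each). Adjusted over the 3 pairs every p was 0.0571, so no pair passed. After quantile normalization the differences were 0.20, 0.20 and 0.06, and after cyclic loess 0.09, 0.13 and 0.02, in the order given. The constitutive genes all lie in the brightest signal class, with Psmb8 in the dimmest, Psmb10 in the second and Psmb9 in the third. Over all genes the median difference was -0.15 in the brightest class, 0.15 in the dimmest, 0.21 in the second and -0.03 in the third. The part of this array-wide shift in the pair values was not tested.

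**Figure D3:**
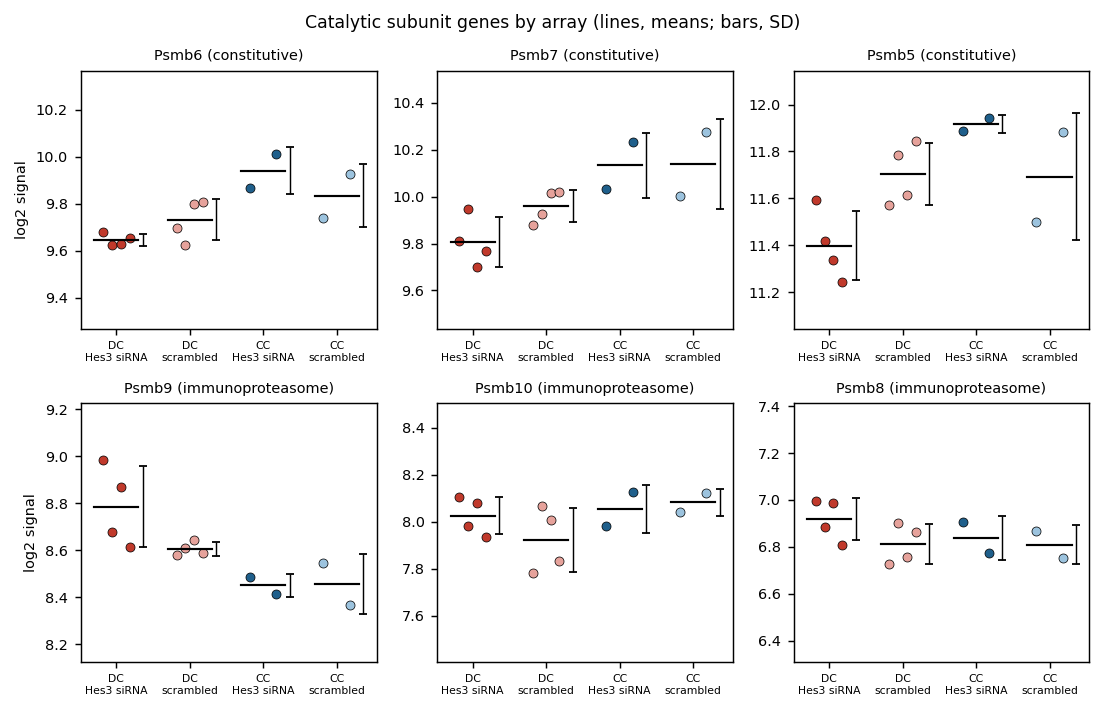
Log2 signal of the constitutive catalytic genes (top) and the immunoproteasome gene that replaces each (bottom) in every array, with a line for the group mean, a bar for the SD and an equal axis length in all panels. The mean of Psmb5 is lowest and that of Psmb9 highest in the DC arrays labelled Hes3 siRNA, where Psmb5 and Psmb9 each overlap with the DC scrambled arrays.

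In DC, most markers of other cells were higher in the arrays labelled Hes3 siRNA, and most beta cell markers were lower. Of the 11 beta cell markers 4 were called lower and 1 higher, with a median of -0.14. The 36.4% called lower compare with 40.9% of the brightest class, which holds 10 of them. Of 8 macrophage and dendritic cell markers, cells rich in immunoproteasome, 6 were called higher in the arrays labelled Hes3 siRNA (75%, against 36.9% of the dimmest signal class), with Cd74 at 0.33 and Csf1r at 0.28. Their summed level ran from 10.22 to 10.32 (log2) in those arrays, against 10.12 to 10.19 in the DC scrambled arrays, 10.45 to 10.48 in the CC arrays labelled Hes3 siRNA and 10.35 to 10.37 in the CC scrambled arrays. All but Cd68 lie in the dimmest signal class, with Ptprc as low as 5.81, and the summed level was higher in all 4 CC arrays than in any DC array. A sum weighs the brightest genes most. Gene by gene, 1 of the 8 was lower in DC than in CC among the arrays labelled Hes3 siRNA (-0.66, called lower). There 2 were called higher (25%, against 22.7% of the dimmest class). Among the scrambled arrays 3 of the 8 were below 0, with 1 called lower and none higher. Of 7 fibroblast and matrix markers, 3 in the second signal class (56.9% called higher) and 4 in the third (19.6%), 5 were called higher (71.4%), with a summed level of 11.22 to 11.43 in the DC arrays labelled Hes3 siRNA, against 10.95 to 11.07 in the DC scrambled arrays. In CC it ran from 11.16 to 11.17 under the Hes3 siRNA label, against 10.99 to 11.11 under the scrambled label. In CC no macrophage or dendritic cell marker was below 0 under the Hes3 siRNA label and none was called, with a median of 0.10. The median of the 3 immunoproteasome genes was -0.01 there. The part of these markers of other cells in the immunoproteasome values was not tested.

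Members that move together may share promoter elements, so the promoters of Psmc6 and Psmb3, with the largest decreases of an ATPase and of a beta subunit between media below, of the catalytic subunit Psmb5 and of Psmb9 are shown. Windows came from RefSeq (GRCm38.p6) and ran from 250 bases before to 50 bases after each annotated start, for 42 of the 50 members in 46 windows. They were searched on both strands for TGACNNNGC, the type of element bound by Nfe2l1 and Nfe2l2, for CCAAT, and for the interferon response motif (GAAA, any bases NN, GAAA), the type bound by interferon regulatory factors. The 250 bases before the start are printed on the gene's strand, with matches in capitals, and the matches shown share no bases with each other. They are Psmc6 (chr14:45329574-45329823, plus strand), Psmb5 (chr14:54617996-54618245, minus strand), Psmb3 (chr11:97703184-97703433, plus strand) and Psmb9 (chr17:34187331-34187580, minus strand).
Psmc6: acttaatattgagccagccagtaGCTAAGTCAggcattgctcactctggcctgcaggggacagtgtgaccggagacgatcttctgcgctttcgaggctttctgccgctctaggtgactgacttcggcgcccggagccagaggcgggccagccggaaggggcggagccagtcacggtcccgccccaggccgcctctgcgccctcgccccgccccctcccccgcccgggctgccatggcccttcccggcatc
Psmb5: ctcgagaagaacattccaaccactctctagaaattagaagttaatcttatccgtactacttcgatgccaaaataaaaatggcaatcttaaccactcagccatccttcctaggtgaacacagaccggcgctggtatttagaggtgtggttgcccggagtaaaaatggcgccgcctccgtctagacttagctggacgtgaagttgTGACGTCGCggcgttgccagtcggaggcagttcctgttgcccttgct
Psmb3: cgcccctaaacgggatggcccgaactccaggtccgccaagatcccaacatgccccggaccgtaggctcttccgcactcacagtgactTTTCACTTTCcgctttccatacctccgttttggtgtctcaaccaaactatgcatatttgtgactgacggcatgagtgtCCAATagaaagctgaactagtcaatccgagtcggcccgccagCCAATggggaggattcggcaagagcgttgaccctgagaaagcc
Psmb9: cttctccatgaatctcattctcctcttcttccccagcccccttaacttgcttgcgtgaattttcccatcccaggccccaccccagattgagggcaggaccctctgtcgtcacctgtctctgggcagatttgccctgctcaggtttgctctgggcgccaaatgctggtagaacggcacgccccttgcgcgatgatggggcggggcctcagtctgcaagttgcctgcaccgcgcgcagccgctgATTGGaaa

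TGACNNNGC matched in Psmb5 at -47 and, on the other strand, in Psmc6 at -227, counted to the first base of the match from the annotated start. CCAAT matched in Psmb3 at -85 and -43 and, on the other strand, in Psmb9 at -8. The interferon response motif matched in Psmb3 at -163 on the other strand. Over the members, TGACNNNGC was in 6 of 46 windows (13%), against 12.4% of all 32851 windows, and CCAAT in 16 (34.8%), against 37.4%. The interferon response motif was not in the search as first planned. It was in 5 member windows (10.9%), against 3.44% of all windows, and in 0 of the 3 windows of immunoproteasome genes. These shares were not tested. A match is a description of these letters, and its absence says only that they are not in this window.

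The decrease in DC rested on some arrays and on the scaling. Array 5 labelled Hes3 siRNA was the lowest of its group for 24 of the 50 members, against 17% of all genes. Without it 8 members were called lower and 1 higher. Without arrays 1 and 5 together no member was called in either direction (331 genes in all), while the median was still -0.10 and that of the 14 constitutive core genes -0.18. With quantile normalization 8 members were called lower and 2 higher, 9 of them among the 23 calls made as deposited, and with cyclic loess 7 lower and none higher, all 7 among the 23. Psma2, Psma4, Psma6, Psmc6, Psmd5, Psme3 and Psmg2 were called lower under both. The median of the 3 immunoproteasome genes was 0.11 as deposited, 0.04 after quantile normalization and -0.01 after cyclic loess, so its direction was not the same under every scaling.

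**Figure D4:**
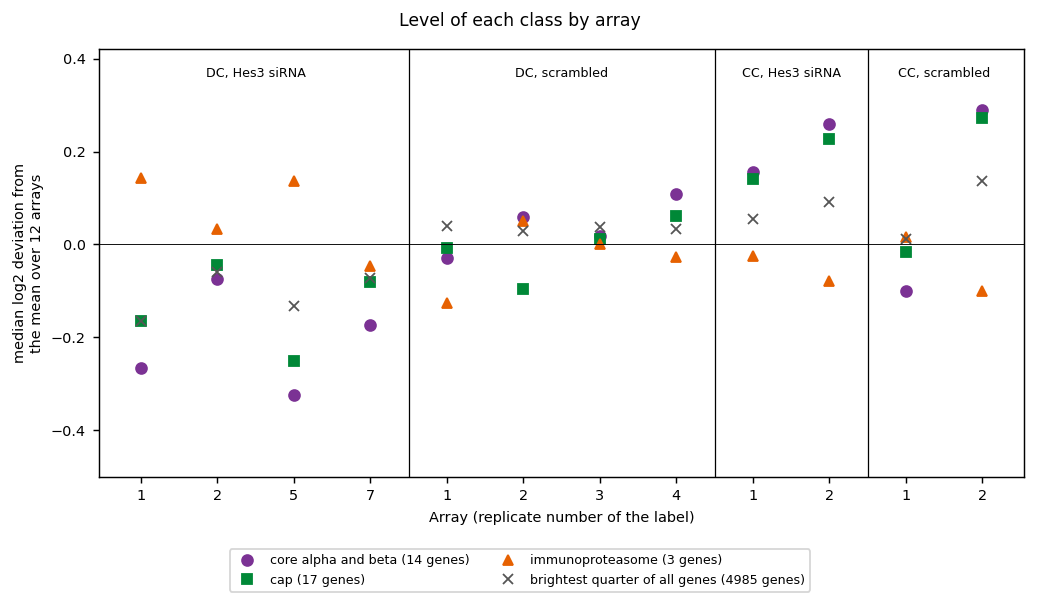
Median log2 deviation from the 12-array mean for the core (14 genes), the cap (17 genes), the immunoproteasome (3 genes) and the brightest signal class of all genes, in each array. The core lies at -0.32 in array 5 and -0.27 in array 1 of the DC group labelled Hes3 siRNA, against -0.07 in array 2, and it lies at -0.10 in CC scrambled array 1, against 0.29 in CC scrambled array 2.

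In CC, the arrays labelled Hes3 siRNA and the scrambled arrays gave no called member. Of all genes 0% were called by limma, with 415 (2.08%) at an unadjusted p under 0.05, and 0 members reached that. The median of the members was 0.07, with 38 of 50 differences above 0. Of the members 24% were below 0, against 42.1% of all genes and 49.9% of the brightest class. Groups did not overlap for 4 members that were higher and 3 that were lower, against 13.9% and 13.1% of all genes (26.9% in either direction). In the brightest class 3 and 1 of 31 members did not overlap (9.68% and 3.23%), against 6.18% and 19.1% of its genes.

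The 3 smallest p-values belonged to Psmb4, Psmd6 and Psmb5. Psmb4, a non-catalytic beta subunit, had 11.37 and 11.38 in the CC arrays labelled Hes3 siRNA, against 11.05 and 11.28 in the CC scrambled arrays (0.21 ± 0.10, adjusted p = 1). Psmd6 had 10.64 and 10.50 in the CC arrays labelled Hes3 siRNA, against 10.11 and 10.45 in the CC scrambled arrays (0.29 ± 0.14, adjusted p = 1). Psmb5 had 11.89 and 11.94 in the CC arrays labelled Hes3 siRNA, against 11.50 and 11.88 in the CC scrambled arrays (0.22 ± 0.13, adjusted p = 1). In each of the 3 genes both arrays labelled Hes3 siRNA lay above both scrambled arrays, and the scrambled arrays differed from each other by more than the arrays labelled Hes3 siRNA did. The lowest end of their 95% intervals was -0.055 (Psmb5) and the highest was 0.59 (Psmd6).

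Scrambled array 1 in CC was low for the core and array 2 was high, as the plot of class levels by array shows. The median of the members was -0.07 in CC without scrambled array 1 and 0.20 without scrambled array 2. With 2 arrays a group, the direction of the CC difference thus rested on a single array.

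The siRNA contrasts in DC and in CC were set against each other as a difference of differences. No gene passed (0% of all genes, limma, 3471 or 17.4% at an unadjusted p under 0.05), and 18 of the 50 members had an unadjusted p under 0.05. In the brightest class 16 of 31 members did (51.6%), against 28.4% of its genes, with a median of -0.33 against -0.15. All 14 constitutive core genes had a negative value, with a median of -0.39, and the 3 immunoproteasome genes had positive ones. Of all genes in the brightest class 75.8% had a negative value. The share was 15% in the dimmest class (Psmb8), 17.8% in the second (Psmb10) and 49.9% in the third (Psmb9). The smallest p-values were those of Psmd6 (-0.61 ± 0.17, adjusted p = 0.181), Psmb3 (-0.47 ± 0.14, adjusted p = 0.186) and Psmb4 (-0.43 ± 0.13, adjusted p = 0.186). Without CC scrambled array 2, 2056 genes passed, with 19 members lower and 1 higher. A difference of the siRNA contrast between both media was thus not shown with all arrays.

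The media were compared within each siRNA label. Here and elsewhere, media stands for the culture conditions DC and CC as a whole. These conditions differ in oxygen as well as in medium and serum. No group changes only the oxygen or only the medium, so the part of each in these differences was not tested. Among the arrays labelled Hes3 siRNA, the DC arrays had lower signals than the CC arrays for 27 members and higher signals for 2. Over all genes 40.1% were called, 18.8% lower and 21.2% higher, against 54% and 4% of the members. In the brightest class 22 of 31 members were lower (71%), against 44.5% of its genes, with a median of -0.37 against -0.19. The groups did not overlap for 30 members that were lower and 2 that were higher, against 23.4% and 38.4% of all genes (61.8% in either direction). In the brightest class 22 of 31 members were lower without overlap (71%), against 52.3% of its genes. At an unadjusted p under 0.05 there were 30 members, against 52.5% of all genes. This comparison and the siRNA comparison in DC share the 4 DC arrays labelled Hes3 siRNA.

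Of the core genes 12 of 14 were called lower (85.7%, against 44.5% of the brightest class): all alpha genes but Psma5 (-0.12, adjusted p = 0.276) and all beta genes but Psmb2 (-0.13, adjusted p = 0.263). The catalytic genes were all among them. Psmb5 had 11.59, 11.42, 11.34 and 11.24 in DC, against 11.89 and 11.94 in CC, and fell by 30.2% (-0.52 ± 0.11, adjusted p = 0.0034). Psmb6 had 9.68, 9.62, 9.63 and 9.65 in DC, against 9.87 and 10.01 in CC (-0.29, adjusted p = 0.0105). Psmb7 had 9.81, 9.95, 9.70 and 9.77 in DC, against 10.03 and 10.23 in CC (-0.33, adjusted p = 0.0143). In all 3 genes the 4 DC arrays lay below both CC arrays.

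Psmb3, a structural beta subunit, had 11.50, 11.61, 11.49 and 11.46 in the DC arrays labelled Hes3 siRNA, against 12.05 and 12.28 in the CC arrays. The gap between the groups was wider than either group's range, and Psmb3 fell by 36.3% (-0.65 ± 0.10, adjusted p = 0.000167). Its second probe set gave -0.65.

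The cap had 10 of 17 genes called lower (58.8%, against 44.5% of the brightest class) and none higher. They were the ATPases Psmc1, Psmc4 and Psmc6 and the non-ATPases Psmd6, Psmd7, Psmd8, Psmd11, Psmd12, Psmd13 and Psmd14. Psmc6 again had the largest decrease of the members, with 8.60, 9.14, 8.77 and 9.22 in DC, against 9.72 and 9.82 in CC. It fell by 44.1% (-0.84 ± 0.17, adjusted p = 0.00166). Psmd14, the deubiquitinase of the lid, had 10.00, 10.39, 10.17 and 10.51 in DC, against 10.98 and 11.14 in CC, and fell by 42.2% (-0.79 ± 0.14, adjusted p = 0.000926). Psmd6 had 9.74, 10.06, 9.80 and 9.83 in DC, against 10.64 and 10.50 in CC, and fell by 39.0% (-0.71 ± 0.12, adjusted p = 0.000605). No DC array reached a CC array in these 3 genes. Psmd1 and Psmd2, the scaffolds of the base, had 0.06 and -0.06 (adjusted p = 0.601 and 0.569).

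Neither gene that was higher lies in the brightest class. Psmb9 lies in the third class from the dimmest, where 16.9% of genes were called higher, and Psmg3 in the second, where 36.1% were. Psmb9 had 8.99, 8.68, 8.87 and 8.61 in the DC arrays labelled Hes3 siRNA, against 8.49 and 8.41 in the CC arrays. All DC arrays lay above both CC arrays, and Psmb9 rose by 26.2% (0.34 ± 0.09, adjusted p = 0.0136). Psmg3 had 8.09, 7.99, 7.99 and 7.81 in DC, against 7.82 and 7.57 in CC, which overlap by a single array, and rose by 21.3% (0.28 ± 0.09, adjusted p = 0.0207). Centring each array on its median ended both calls, and without DC arrays 1 and 5 labelled Hes3 siRNA neither was called (0.19 and 0.21). Psmb8 had 6.90 and 6.77 in the CC arrays and a difference of 0.08 (adjusted p = 0.418), and Psmb10 had 7.98 and 8.13 and a difference of -0.03 (adjusted p = 0.808). The median of the 3 immunoproteasome genes was 0.08 as deposited, -0.07 after quantile normalization and -0.11 after cyclic loess.

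Within arrays, Psmb9 minus Psmb6 was higher by 0.63 in DC, Psmb8 minus Psmb5 by 0.60 and Psmb10 minus Psmb7 by 0.30, with no overlap between the groups in any pair. The exact permutation p-values were 0.0667, 0.0667 and 0.133. With 4 against 2 arrays 0.0667 is the smallest p that can be reached, so no pair can pass 0.05. After quantile normalization the values were 0.50, 0.25 and 0.05, in the order given. Over all genes the median difference between these groups was -0.19 in the brightest class, which holds the constitutive genes. It was 0.15 in the dimmest class (Psmb8), 0.19 in the second (Psmb10) and -0.03 in the third (Psmb9). The part of this shift in the pair values was not tested.

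Of the activators, Psme3 fell by 0.48 and Psmf1 by 0.37 on the log2 scale (adjusted p = 0.00301 and 0.00896). Psme4, which was lower in the siRNA comparison, had -0.20 here (adjusted p = 0.12). Psme1 had 9.48 and 9.66 in the CC arrays labelled Hes3 siRNA and a difference of -0.09 (adjusted p = 0.437). Psme2 had 9.40 and 9.53 and a difference of -0.22 (adjusted p = 0.148). Among the chaperones Psmd5, Psmd10 and Psmg2 fell by 0.60, 0.49 and 0.62 on the log2 scale.

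Arrays again decided part of the count. Without CC array 2 labelled Hes3 siRNA 12 members were called lower, and without DC arrays 1 and 5 labelled Hes3 siRNA 16 were, with none higher in either case. With quantile normalization and with cyclic loess 19 members were called lower and 2 higher, and under each 19 of these 21 were among the 29 calls made as deposited. Psmc4, Psmc6, Psmd6, Psmd12, Psmd13, Psmd14, Psma6, Psmb3, Psme3 and Psmg2 were called lower under all 22 alternatives tried.

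**Figure D5:**
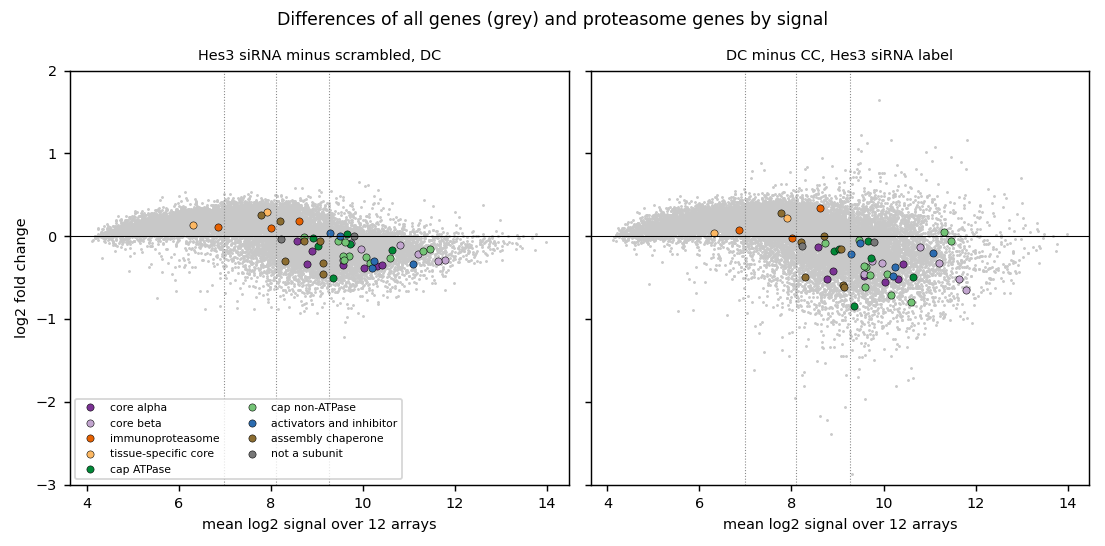
Log2 fold change against mean log2 signal for all genes (grey) and the members (coloured by role), with dotted lines between the 4 signal classes, for the siRNA labels in DC (left) and the media among arrays labelled Hes3 siRNA (right). Grey points lie mostly above 0 at low signal and mostly below 0 at high signal in both panels, and 31 members lie in the brightest class.

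Among the scrambled arrays the media gave no called member, against 8.54% of all genes (3.09% higher and 5.45% lower). At an unadjusted p under 0.05 there were 5 members (limma), against 19.6% of all genes, and 2 of 31 in the brightest class (6.45%, against 37.2% of its genes). The median was -0.08, with 38 of 50 differences below 0 (76%). Over all genes 43.7% were below 0, and in the brightest class 57.7%. Without overlap, 3 members were higher and 4 lower, against 13.8% and 14.1% of all genes (27.9% in either direction).

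Psmd1 had the smallest p, with 11.48, 11.56, 11.44 and 11.40 in the DC scrambled arrays, against 11.07 and 11.30 in the CC scrambled arrays. The groups did not overlap (0.28 ± 0.09, adjusted p = 0.0603). Psmg1 had 8.94, 8.99, 9.06 and 9.12 in DC, against 9.11 and 9.43 in CC (-0.24 ± 0.09, adjusted p = 0.124). Psmd14 had 10.72, 10.38, 10.48 and 10.53 in DC, against 10.63 and 11.13 in CC (-0.36 ± 0.14, adjusted p = 0.165). Psmg1 and Psmd14 overlapped between the media. Here too the CC scrambled arrays decided the outcome: without array 1 of them 9 members were called lower, with a median of -0.20, and without array 2 the median was 0.04 and 1 member was called higher.

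The 5 members with more than 1 probe set were checked for agreement in DC, in a fit over all 21789 single-symbol probe sets. All 3 of Psma3 (-0.31 to -0.36) and both of Psmb3 (-0.23 and -0.29) were called lower, and neither of Psma5 was called. For Psmc1 the brighter probe set had -0.10 (adjusted p = 0.267) and the other -0.31 (adjusted p = 0.0356). For Psmd2 the brighter had -0.16 (adjusted p = 0.0637) and the other -0.28 (adjusted p = 0.00788). Reading these by their dimmer probe sets would thus have added calls. Psmc3ip and Psme3ip1 were called in no comparison, with -0.04 and 0.00 in DC (adjusted p = 0.582 and 0.989).

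The 3 further lists gave the other genes of the route. Of 14 measured partners and regulators 7 were called lower in DC and none higher, with a median of -0.23 and 14 of 14 differences below 0. Of the 14, 10 lie in the brightest class, where 40.9% of genes were called lower and 83.3% had a difference below 0, against 50% of the partners called lower. They were Usp14, a deubiquitinase of the cap (-0.45, adjusted p = 0.00782), the cap-bound thioredoxin relative Txnl1 (-0.45, adjusted p = 0.00473), Nfe2l2 (-0.37, adjusted p = 0.00518), the proteasome adaptor Ecpas (-0.36, adjusted p = 0.00539), Ube3c, Pomp and Akirin2. Txnl1 had 9.03, 9.13, 8.75 and 9.21 in the DC arrays labelled Hes3 siRNA, against 9.49, 9.50, 9.39 and 9.53 in the DC scrambled arrays, with no overlap. Pomp, the maturation factor of the core, had -0.27 (adjusted p = 0.0463). Nfe2l1, the transcription factor known to raise proteasome genes when the proteasome is inhibited, had -0.03 (adjusted p = 0.647), with 10.05, 10.04, 9.90 and 10.04 in the DC arrays labelled Hes3 siRNA, against 9.96, 10.08, 10.06 and 10.06 in the DC scrambled arrays.

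In CC no partner was called, and the smallest p-values were those of Akirin2 (0.13) and Txnl1 (0.15). Between the media, 9 of 14 were lower in DC among the arrays labelled Hes3 siRNA, led by Zfand2a (-0.73), Uchl5 (-0.53), Usp14 (-0.52) and Pomp (-0.50), against 44.5% of the brightest class called lower. Among the scrambled arrays 2 were lower, Zfand2a (-0.51, adjusted p = 0.00878) and the small lid subunit Sem1 (-0.46, adjusted p = 0.0394). Zfand2a binds the proteasome and is induced by arsenite and heat.

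Of 11 measured genes for ubiquitin and substrate delivery, 4 were called lower in DC and none higher: the activating enzyme Uba6 (-0.65, adjusted p = 0.00217), the shuttle factor Ubqln2 (-0.38), and Faf2 (-0.33) and Ufd1 (-0.24), cofactors of the segregase Vcp. Uba6 had 9.30, 9.69, 9.29 and 9.66 in the DC arrays labelled Hes3 siRNA, against 10.23, 10.11, 10.06 and 10.12 in the DC scrambled arrays, which do not overlap. Vcp had -0.13 (adjusted p = 0.121). All 11 lie in the brightest class, and the 36.4% called lower is below that class's 40.9%. None was called in CC, where Ubqln1 (0.12) and Ufd1 (0.15) had the smallest p-values. Between the media 5 were lower in DC among the arrays labelled Hes3 siRNA, with Faf2 at -0.53, Nploc4 at -0.43, Ufd1 at -0.42 and Ubqln1 at -0.36 (45.5%, against 44.5% of the brightest class). Among the scrambled arrays Uba6 was higher (0.43, adjusted p = 0.0426) and Nploc4 lower (-0.25, adjusted p = 0.0358) in DC.

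Of 12 measured genes for interferon response and antigen presentation, 2 were called higher and 5 lower in DC (16.7% and 41.7%, against 28.9% and 18.3% of all genes). Of the 12, 6 lie in the brightest class, where 2.39% of genes were called higher and 40.9% lower. Another 4 lie in the third class (19.6% higher, 24.7% lower) and 2 in the second (56.9% higher, 6.2% lower). Nlrc5, an activator of MHC class I genes, had 0.32 (adjusted p = 0.00439), and Irf1, which drives immunoproteasome genes, had 0.26 (adjusted p = 0.0115). Irf1 had 8.07, 7.81, 8.08 and 8.02 in the DC arrays labelled Hes3 siRNA, against 7.69, 7.76, 7.76 and 7.73 in the DC scrambled arrays. These do not overlap, and Irf1 lies in the signal class where 56.9% of genes were called higher. B2m, the light chain of MHC class I, had 7.70, 7.88, 7.28 and 7.06 in the DC arrays labelled Hes3 siRNA, against 8.21, 8.04, 8.15 and 8.31 in the DC scrambled arrays. It was lower in every array, with a difference of -0.70 ± 0.16 (adjusted p = 0.00588). The other lower genes were Pdia3, a chaperone of peptide loading (-0.30, adjusted p = 0.0338), the trimming peptidase Erap1 (-0.25), Tapbp (-0.22) and Stat2 (-0.19). The peptide transporter genes Tap1 and Tap2, neighbours of Psmb9 and Psmb8 in the MHC region, had -0.02 and 0.17 (adjusted p = 0.856 and 0.0727). In CC none was called, and the smallest p-values were those of Stat2 (-0.22) and Irf9 (-0.12). Between the media Stat2 was higher in DC for both labels (0.53 among the arrays labelled Hes3 siRNA and 0.50 among the scrambled arrays), and B2m (-0.69, adjusted p = 0.014), Pdia3 (-0.57) and Erap1 (-0.49) were lower among the arrays labelled Hes3 siRNA. Among the scrambled arrays Calr was lower in DC (-0.34, adjusted p = 0.00854).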

How the data were processed

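Total RNA (250 ng) from 12 MIN6 samples was labelled and hybridised to Affymetrix gene arrays, per the labels' protocols. The log2 values were deposited by the authors as a single table of 35556 probe sets. No label states the unit; values between 3.94 and 14.4 were taken to be on a log2 scale. The summarization, background correction and normalization are not given in the sources used here, so part of a difference that depends on signal may come from them. Detection calls were not analysed here, and depth has no counterpart on arrays.

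Probe sets were named through the platform annotation of 2016: 21789 carry a single symbol, 1621 several and 12146 none. Of the single-symbol probe sets 21698 were matched to current symbols by Entrez ID and 0 symbols changed. For the 999 genes with several probe sets the one with the highest mean over 12 arrays was kept, which left 19938 genes. No column of the table was left out. All 12 arrays entered a single limma fit (limma 3.58.1, R 4.3.3) of 4 groups with 5 contrasts, 8 residual and 7.62 prior degrees of freedom, and Benjamini-Hochberg adjustment over all genes at a threshold of 0.05. The procedure was tested on simulated data. The exact permutation tests of the subunit pairs were added after the data had been seen. The interferon response motif was also not in the first plan, which held TGACNNNGC and CCAAT.

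The members and lists were chosen with earlier results of these data known. Array values are given for Psmb5 to Psmb10, Psme1 and Psme2, and in each contrast for up to 4 called members with the largest increase and 4 with the largest decrease, or the 3 with the smallest p where none was called. From each pathway list up to 4 called genes with the largest change were named, or the 2 with the smallest p where none was called. Genes named beyond these were chosen after their values were seen. Replicate numbers were not used to pair the samples, since no label states a pairing. The residuals of same-numbered arrays correlated between -0.441 and 0.536. Arrays with different numbers were not set beside them, so a pairing was neither shown nor excluded. A single array that stood apart was sought with Dixon's test in 42 groups of 4 values, and 0 were found. The results were recomputed under 22 alternatives.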

Additional observations from a re-analysis of the deposited data

How the results depend on the processing

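No called member changed direction under any of the 22 alternatives, but counts did change, and the cause was not tested. In the siRNA comparison in DC (9408 genes, 20 members lower and 3 higher, median -0.16), quantile normalization gave 5736 genes, 8 members lower and a median of -0.047, cyclic loess gave 4297 genes, 7 lower and 0 higher, and leaving out dim genes gave 5436 genes. Without arrays 1 and 5 of the DC group labelled Hes3 siRNA there were 331 genes, 0 members lower and 0 higher, and leaving out 1 array at a time gave 5754 to 10476 genes, 8 to 23 members lower, 1 to 4 higher and medians of -0.20 to -0.12. Without array 1 of the DC scrambled group 5754 genes were called, and without DC array 1 labelled Hes3 siRNA 6064.

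Between media among the arrays labelled Hes3 siRNA (7986 genes, 27 members lower and 2 higher, median -0.31), quantile normalization gave 5025 genes and a median of -0.16, and cyclic loess 5131 and -0.17. Centring on the array median gave 0 members higher and a median of -0.42. It moved the share of all genes called higher and lower to 5.19% and 24.8% (21.2% and 18.8% as deposited), and in the siRNA comparison in DC to 14.6% and 25.2% (28.9% and 18.3% as deposited). Only the arrays compared gave 1 member higher, and leaving out DC arrays 1 and 5 gave 3631 genes, 16 members lower and 0 higher. Leaving out 1 array at a time gave 2357 to 9516 genes, 12 to 28 members lower, 0 to 3 higher and medians of -0.33 to -0.24, and without CC array 1 or 2 labelled Hes3 siRNA 3410 or 2357 genes were called.

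Between media among the scrambled arrays (1702 genes), array weights gave 1054 genes, and quantile normalization, cyclic loess, leaving out dim genes and leaving out DC arrays 1 and 5 each gave 1 member higher. Leaving out 1 array gave 742 to 2364 genes, 0 to 9 members lower, 0 to 1 higher and medians of -0.20 to 0.038. In CC leaving out 1 array gave 0 genes each time and medians of -0.066 to 0.20. The difference of the siRNA contrasts had a median of -0.11 after quantile normalization and after cyclic loess. Leaving out 1 array gave 0 to 2056 genes, 0 to 19 members lower, 0 to 1 higher and medians of -0.33 to -0.10, and a fit of only the arrays compared gives no value for it.

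With the replicate number as a block, which no label states, the siRNA comparison in DC had 620 genes, 2 members lower, 0 higher and a median of -0.065. The media comparison then had 804 genes among scrambled arrays and 4051 among the arrays labelled Hes3 siRNA. The difference of contrasts had a median of -0.14. The number of arrays and, for dim genes, the unknown signal over background limit these results.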
